A study of Mus musculus with 16 samples.

Results

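The genes described are the 78 protein-coding genes of the mouse liver table whose symbols begin with Mrpl or Mrps and go on with a number, out of 57010 rows, of which 22005 are protein-coding. They are named for proteins of the mitochondrial ribosome (mitoribosome), and 49 carry a large-subunit name (Mrpl) and 29 a small-subunit name (Mrps). Liver RNA came from 16 wild-type male C57BL/6J mice in 4 groups of 4, which were 8 to 12 weeks old at the outset and older, by the length of the diet, when liver was taken. The control group (mice 27 to 30) had neither agent. The Cd group (mice 1, 2, 5 and 6) had CdCl2 at 1.25 mg/kg by intraperitoneal injection on each of 7 days. The Se group (mice 39, 40, 41 and 44) ate a diet with 2 ppm selenomethionine (SeMet) for 3 months. The Cd+Se group (mice 13 to 16) had both, with the injections in the last 7 days of the diet. The sources used here do not say whether control mice had a vehicle injection. The values are TPM, read shares scaled for transcript length and then to the same total in every library.

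Mitochondria carry ribosomes of their own, which translate the few proteins encoded by mitochondrial DNA, all of them subunits of the respiratory chain and ATP synthase. The ribosomal RNAs are made inside the organelle, whereas every protein of the mitoribosome is encoded in the nucleus, made in the cytosol and imported. The mammalian particle descends from a bacterial ribosome, has lost part of its RNA and has gained many proteins with no bacterial counterpart, and the liver, rich in mitochondria, uses it throughout life.

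All 78 genes matched the mouse annotation (GENCODE M21, GRCm38) by Ensembl identifier, on 17 chromosomes. Names and structure differ for 2 of them, since the products of Mrps30 and Mrps18a sit in the large subunit, which then holds 51 of the proteins. Mrps36 is included by its name only, since its product is now known as a component of the 2-oxoglutarate dehydrogenase complex, and it is counted below with the 27 small-subunit names. By general knowledge, 46 have a bacterial counterpart and 32 do not, where a protein related to a bacterial one but set elsewhere in the particle counts as without. Another 6 rows with such names have a different biotype and were left out.

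The cells behind these values were liver cells by their markers, with albumin and 5 other hepatocyte genes at high levels in every library. The label check was clear, since metallothionein Mt1, a metal-binding protein induced by Cd, was at 50.9 to 221 TPM in control mice and 64.3 to 431 TPM in Se mice, against 3178 to 4899 TPM in Cd mice and 3621 to 6070 TPM in Cd+Se mice. The libraries of Cd mice differed in other ways. All transcripts encoded by mitochondrial DNA together took 12.8% to 22.2% of TPM in Cd mice and 16.4% to 17.3% in control mice. The 6 Kupffer cell markers summed to 45.9 to 70.9 TPM in Cd mice and 129 to 160 TPM in control mice, and all 6 fell; 5 neutrophil markers summed to 32.5 to 41.3 TPM against 6.58 to 16.7 TPM, and 3 of the 4 tested rose. The 6 hepatocyte markers summed to 43482 to 69841 TPM in Cd and 66198 to 87230 TPM in control mice, 1 of them fell, and no marker gene was listed at 0 in all libraries. The part of these shifts in the results was not tested, and in bulk RNA fewer cells of a type and less RNA per cell cannot be told apart.

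In control livers the 78 genes had mean levels from 2.06 to 186 TPM, with a median of 24.4 TPM, so that all of them passed the filter of a mean of 1 TPM over the 16 libraries. Per length, the highest mean levels over all mice belonged to Mrps21, Mrpl33, Mrpl30, Mrpl42, Mrps18c and Mrpl24. Mrps21, a small-subunit protein with a bacterial counterpart, stood at 227, 183, 170 and 164 TPM in control mice 27 to 30, and Mrpl33 at 104, 84.2, 78.2 and 93.8 TPM. The lowest were Mrps30, Mrpl19 and Mrpl23, which were at 5.46 ± 0.103, 3.60 ± 0.893 and 2.06 ± 0.811 TPM in control mice (SD, n = 4). The spread between mice was moderate: the median coefficient of variation over the 78 genes was 9.33% in control mice, 13.6% in Cd, 11.9% in Cd+Se and 10.7% in Se mice. It was widest for Mrpl23, at 39.3% in control and 51.2% in Cd+Se mice.

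Summed over the 78 genes, the level was 2373 ± 151 TPM in control, 2590 ± 229 in Cd, 2305 ± 117 in Cd+Se and 2456 ± 161 TPM in Se mice (SD, n = 4). The single values overlapped between the control mice (2227 to 2578 TPM) and the Cd mice (2339 to 2834 TPM). The ratio of the summed large-subunit to small-subunit genes was 1.90 ± 0.0631 in control, 1.91 ± 0.0269 in Cd, 1.96 ± 0.0568 in Cd+Se and 1.94 ± 0.0416 in Se mice. Within each group the libraries did not stand level. Cd mouse 1 was the highest of its group for 41 of the 78 genes, and Cd mouse 5 the lowest for 53. Cd+Se mouse 16 and Se mouse 40 were each the highest of their group for 42. Control mouse 28 and Se mouse 41 were each the lowest for 40. Over all genes tested, the median log2(TPM + 1) was 2.68 in Cd mouse 5 and 2.90 to 3.12 in the other Cd mice.

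The first comparison asked which of these genes differ in liver after Cd. Log2(TPM + 1) was compared between the groups with limma, in 1 model over the 16 libraries and 11766 genes, and a gene was called at a Benjamini-Hochberg adjusted p under 0.05. With Cd, 17 of the 78 genes rose and 9 fell. That is 21.8% higher and 11.5% lower, where 5.82% of all genes tested were higher and 24.9% lower. In 16 genes every Cd mouse was above every control mouse, and in 11 every Cd mouse was below (20.5% and 14.1%, against 6.44% and 27.8% of all genes tested). The median difference over the 78 genes was -0.01 on the log2 scale, with 38 positive and 40 negative estimates, beside -0.17 over all genes tested. The direction of that median depends on the scaling. It became 0.15 with quantile normalization and 0.21 when each library was centred on its median, which moved the median of all genes to -0.01 and 0.05, and the calls became 27 higher and 4 lower, or 34 higher and 3 lower. Calls over all genes tested shifted as well, to 14.5% higher and 19.3% lower with quantile normalization and 19.2% higher and 15.3% lower with centring. A correction of each library for coding length and GC content gave 21 higher and 6 lower, beside 14.8% and 17.4% of all genes. With transcript length in place of coding length it gave 21 higher and 11 lower, beside 13.7% and 16.4%. Rescaling over nuclear protein-coding genes gave 21 higher and 10 lower, beside 7.55% and 29.4%.

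**Figure D1:**
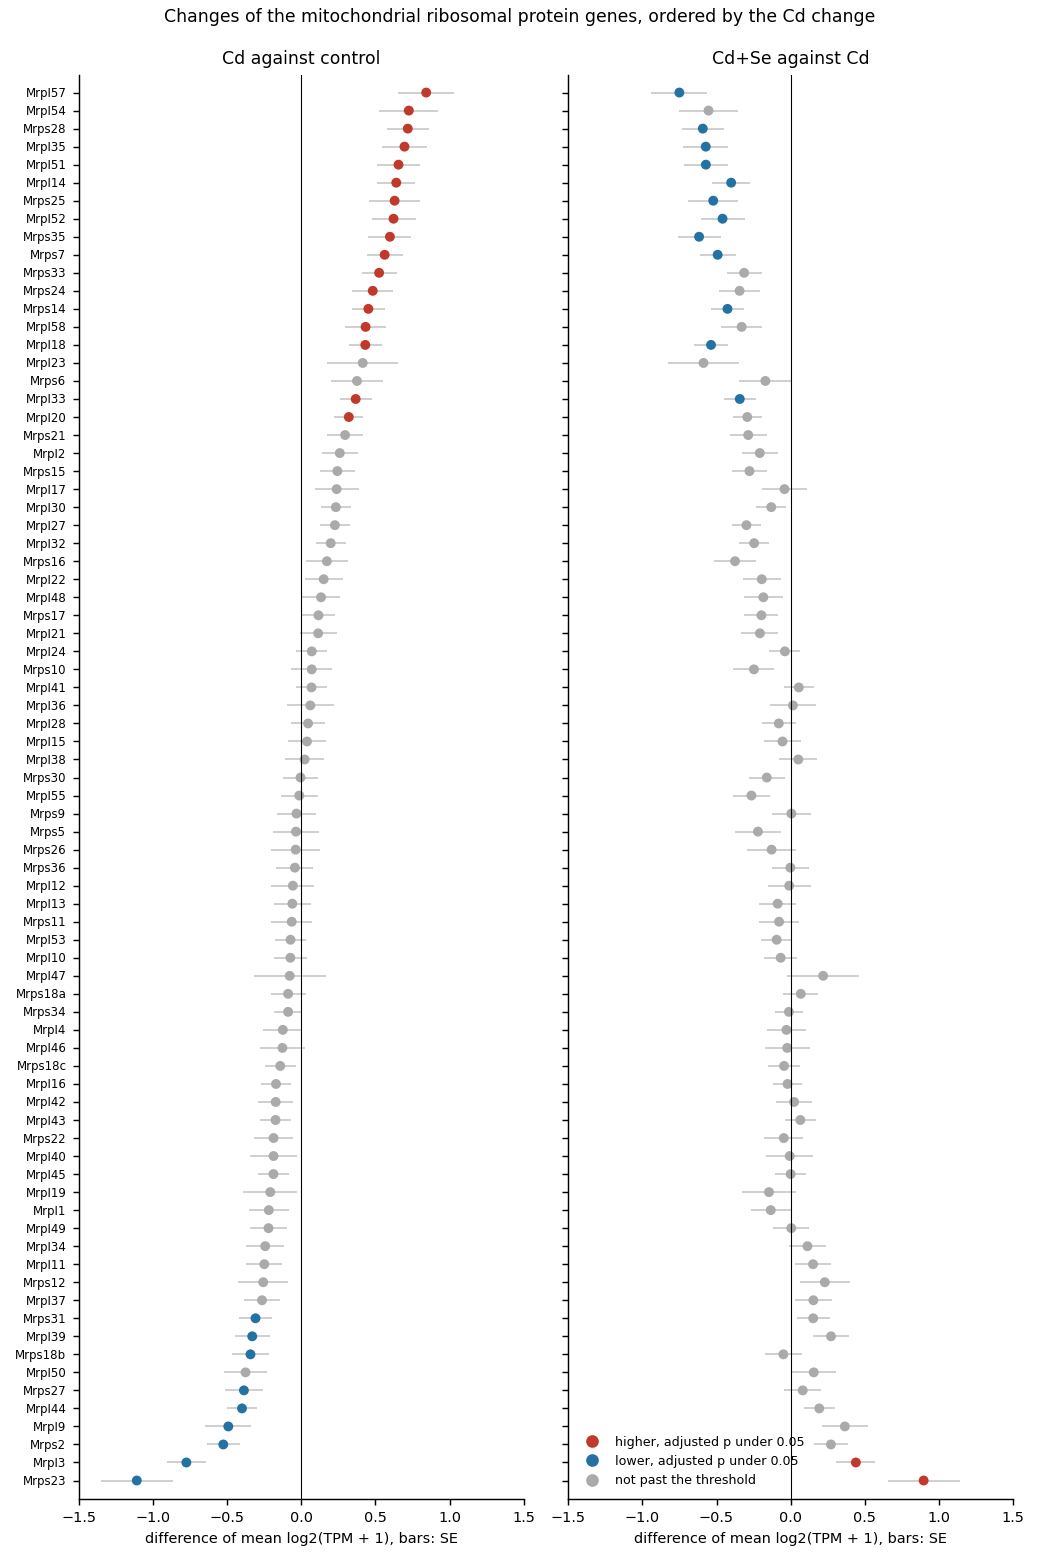
Difference of mean log2(TPM + 1) with its standard error (x axis) for each of the 78 genes (y axis, ordered by the Cd change), for Cd against control on the left and Cd+Se against Cd on the right; red and blue points are past the threshold. On the left 17 genes are higher and 9 lower, from 0.84 for Mrpl57 to -1.11 for Mrps23, and on the right 2 are higher and 12 lower.

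The genes that rose were spread over both subunits, with 10 of 49 Mrpl and 7 of 29 Mrps genes. Mrpl57, a short protein of the large subunit without a bacterial counterpart, led them. It was at 18.1, 14.1, 12.8 and 9.26 TPM in control mice 27 to 30 and at 28.2, 25.01, 21.1 and 24.2 TPM in Cd mice 1, 2, 5 and 6. All Cd mice were above all control mice, and the mean log2 difference was 0.84 (SE 0.189, adjusted p = 0.00406). The gene (ENSMUSG00000021967) lies at chr14:57826234-57829296 on the plus strand of GRCm38.

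Mrpl54, also of the large subunit and without a bacterial counterpart, was at 19.8, 12.2, 11.95 and 20.04 TPM in control and 26.8, 28.2, 25.5 and 24.9 TPM in Cd mice. The Cd mice were close together and above the control mice, which fell into a higher and a lower pair (0.73, SE 0.198, adjusted p = 0.0122). Mrpl35, a large-subunit protein with a bacterial counterpart, stood at 7.74, 5.48, 7.59 and 6.18 TPM in control and 12.5, 12.95, 9.31 and 11.4 TPM in Cd mice, without overlap (0.70, SE 0.15, adjusted p = 0.00333). Mrpl51 was at 25.1, 19.4, 25.3 and 18.9 TPM in control and 42.8, 32.0, 34.9 and 32.1 TPM in Cd mice. The Cd mice again all lay above, with mouse 1 the highest (0.66, SE 0.147, adjusted p = 0.0041).

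Mrpl14 is a conserved protein at the face of the large subunit that meets the small one, and the assembly factor Malsu1 binds there. Its levels were 47.5, 47.8, 41.7 and 48.4 TPM in control and 82.8, 70.4, 77.4 and 61.8 TPM in Cd mice. No control mouse reached the lowest Cd mouse (0.64, SE 0.127, adjusted p = 0.00201). Mrpl52, with a mean of 50.9 ± 7.58 TPM in control and 79.0 ± 12.6 TPM in Cd mice (SD, n = 4), rose by 0.62 on the log2 scale (SE 0.149, adjusted p = 0.00588), also without overlap.

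In the small subunit, Mrps28 (ENSMUSG00000040269, chr3:8802146-8923918, minus strand), the counterpart of a bacterial protein, had the largest rise. It stood at 17.96, 11.8, 14.6 and 13.7 TPM in control and 25.9, 28.8, 22.1 and 21.1 TPM in Cd mice. The groups did not overlap (0.72, SE 0.142, adjusted p = 0.00192). Mrps7, which in bacteria is an early binder of the small-subunit RNA and organizes the head, was at 27.8, 22.7, 29.7 and 24.6 TPM in control and 46.7, 32.7, 39.8 and 37.8 TPM in Cd mice (0.56, SE 0.121, adjusted p = 0.00321). Mrps35, which has no bacterial counterpart, went from 18.4, 17.0, 18.1 and 21.4 TPM to 33.1, 31.9, 26.9 and 24.0 TPM (0.60, SE 0.145, adjusted p = 0.00651). In both genes every Cd mouse was above every control mouse. Mrps25 was lower in level, at 5.07 ± 1.65 TPM in control and 8.23 ± 1.38 TPM in Cd mice (SD, n = 4), and rose by 0.63 (SE 0.17, adjusted p = 0.0117) although control mouse 27, at 7.40 TPM, was above Cd mouse 5, at 6.57 TPM.

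The other 7 genes that rose had log2 differences from 0.32 to 0.52: Mrps33, Mrps24, Mrps14, Mrpl58, Mrpl18, Mrpl33 and Mrpl20. Mrpl58 (Ict1) differs from the rest in function, since it is also a peptidyl-tRNA hydrolase that releases chains from stalled mitoribosomes. It was at 26.6, 22.8, 27.2 and 23.6 TPM in control and 39.1, 40.03, 29.7 and 28.97 TPM in Cd mice, with mice 1 and 2 well above the other two (0.43, SE 0.136, adjusted p = 0.0249). Mrpl18, a conserved protein of the central protuberance, was at 53.3 ± 6.37 TPM in control and 72.3 ± 9.20 TPM in Cd mice (SD, n = 4), and Cd mouse 6 at 59.2 TPM lay below control mouse 27 at 60.9 TPM (0.43, SE 0.112, adjusted p = 0.00924). In the other 6 of these genes the groups did not overlap.

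The largest fall was that of Mrps23 (ENSMUSG00000023723, chr11:88204388-88211507, plus strand), a small-subunit protein without a bacterial counterpart. Control mice 27 to 30 were at 39.6, 26.4, 29.2 and 22.1 TPM, and Cd mice 1, 2, 5 and 6 at 16.8, 18.1, 6.69 and 12.6 TPM. All Cd mice were below all control mice, and the spread was wide in both groups (-1.11, SE 0.243, adjusted p = 0.00351). Without Cd mouse 5, the lowest, the difference stayed past the threshold, and over all single mice left out it ranged from -1.27 to -0.83.

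Mrpl3 (ENSMUSG00000032563, chr9:105053239-105079888, plus strand) is a conserved large-subunit protein that in bacteria binds the ribosomal RNA early and reaches towards the peptidyl transferase centre. It was at 17.5, 14.7, 19.3 and 17.8 TPM in control and at 10.7, 9.89, 7.35 and 11.2 TPM in Cd mice. The groups lay apart, and the difference of -0.78 (SE 0.131) had the smallest adjusted p of the 78 genes, 0.000771. Mrps2, another protein conserved from bacteria, was at 16.3, 15.9, 20.7 and 18.3 TPM in control and 12.8, 11.4, 10.1 and 13.8 TPM in Cd mice, again apart (-0.53, SE 0.113, adjusted p = 0.00316).

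Mrpl44, which belongs to the ribonuclease III family and sits in the large subunit, was at 10.8, 12.6, 11.6 and 12.6 TPM in control and 9.76, 8.51, 7.25 and 9.77 TPM in Cd mice, without overlap (-0.40, SE 0.103, adjusted p = 0.00904). Mrpl9, which has a bacterial counterpart, overlapped: control mice were at 29.4, 29.2, 29.3 and 26.5 TPM, and Cd mice at 26.95, 19.5, 13.9 and 21.8 TPM (-0.49, SE 0.156, adjusted p = 0.0255). Cd mouse 1 lay within the control range and mouse 5 was the lowest. Mrps27, a pentatricopeptide repeat protein of the small subunit, fell by 0.39 on the log2 scale (SE 0.126, adjusted p = 0.0288), from 12.2 ± 0.842 TPM to 9.13 ± 1.37 TPM (SD, n = 4).

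Neither of the last 2 calls was steady. Over 26 alternative settings Mrpl9 was lost in 7, with a difference from -0.63 to -0.33 when 1 mouse was left out, and Mrps27 in 9. Mrps18b, Mrpl39 and Mrps31 were closer to the threshold. Mrps18b is 1 of 3 mammalian relatives of a single bacterial small-subunit protein, whose place in the particle is held by Mrps18c. It was at 41.2 ± 1.43 TPM in control and 32.4 ± 3.31 TPM in Cd mice (SD, n = 4), with a difference of -0.34 (SE 0.124, adjusted p = 0.0458). Mrpl39 resembles part of a threonyl-tRNA synthetase and had a difference of -0.33 (SE 0.119, adjusted p = 0.0452). For Mrps31 the difference was -0.31 (SE 0.111, adjusted p = 0.0447), and it was the only one of these 3 whose groups overlapped. The falls were less steady than the rises. With control mouse 27, control mouse 29 or Cd mouse 5 left out, 4 genes were lower in place of 9. Of all genes tested, 2325, 2124 and 1996 were then lower, in place of 2934. Mrpl39, Mrps18b and Mrps31 were each lost in 10 or 11 of the 16 settings that leave out 1 mouse.

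**Figure D2:**
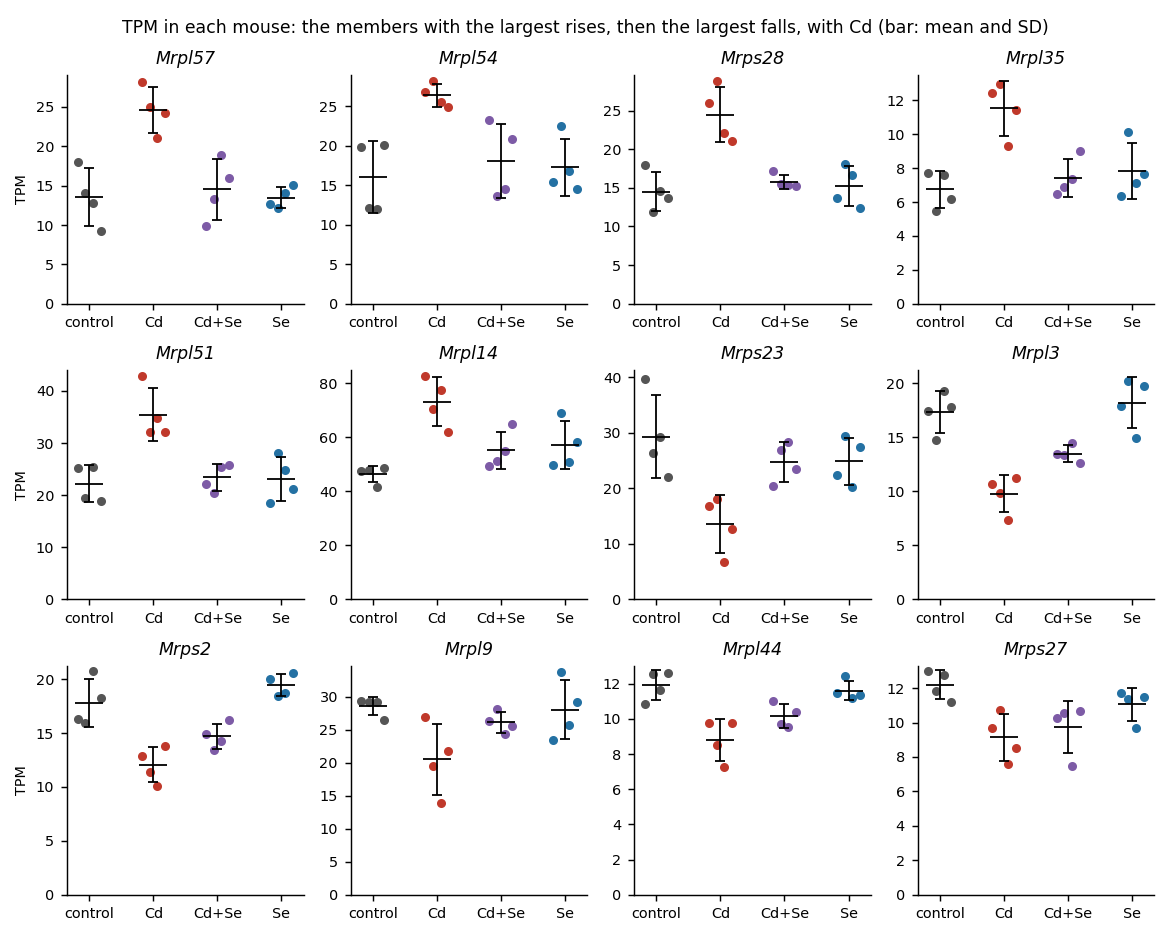
TPM in each mouse (points) by group for the 6 genes with the largest rises with Cd (Mrpl57 to Mrpl14) and the 6 with the largest falls (Mrps23 to Mrps27), with the mean and SD of 4 mice as bars. In Mrpl57 the Cd mice lie at 21.1 to 28.2 TPM and the control mice at 9.26 to 18.1 TPM; in Mrps23 they lie at 6.69 to 18.1 TPM and 22.1 to 39.6 TPM.

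The proteins around the active sites did not move as a block. Mrpl12 and Mrpl10, which form the stalk that recruits translation factors, had differences of -0.06 (SE 0.144, adjusted p = 0.791) and -0.07 (SE 0.11, adjusted p = 0.64), and Mrpl11 at the stalk base -0.25 (SE 0.122, adjusted p = 0.129). Mrpl12, whose product has also been found with the mitochondrial RNA polymerase, ranged widely within the Cd group, from 69.0 and 60.2 TPM in mice 1 and 2 to 39.7 and 47.6 TPM in mice 5 and 6, around the control range of 49.97 to 61.2 TPM. Mrpl2, which lines the peptidyl transferase centre, had a difference of 0.26 (SE 0.12, adjusted p = 0.111) with every Cd mouse above every control mouse, whereas Mrpl3 fell.

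In the small subunit, Mrps12 at the decoding centre had a difference of -0.26 (SE 0.169, adjusted p = 0.263) and Mrps5, whose bacterial counterpart bears on accuracy, one of -0.04 (SE 0.157, adjusted p = 0.883). Mrps6 was at 0.38 (SE 0.179, adjusted p = 0.121) and Mrps34, needed for a stable small subunit, at -0.09 (SE 0.0922, adjusted p = 0.486). Of the 3 Mrps18 genes only Mrps18b passed the threshold; Mrps18a was at -0.09 (SE 0.118, adjusted p = 0.594) and Mrps18c at -0.14 (SE 0.106, adjusted p = 0.322), and the differences between the 3 were not tested. Mrps30 stood at 5.39 to 5.60 TPM in control and 4.60 to 5.87 TPM in Cd mice (-0.01, SE 0.12, adjusted p = 0.975). An adjusted p over the threshold does not show that a level was the same.

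By origin, 9 of the 46 genes with a bacterial counterpart rose and 3 fell, with a median of 0.07, and 8 of the 32 without one rose and 6 fell, with a median of -0.09. By structure, 10 of 51 large-subunit genes rose and 4 fell, with a median of -0.01, and 7 of 27 small-subunit genes rose and 5 fell, with a median of -0.03. None of these divisions separated the genes that rose from those that fell.

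Coding length differed between the genes that rose and those that fell. The 17 genes that rose had a median coding length of 447 bases (195 to 960), the 9 that fell 999 bases (531 to 1245), and the other 52 had 601.5 bases. Of the 14 genes with up to 400 coding bases 6 rose and none fell (42.9% and 0%), with a median difference of 0.33, where 21.4% of all genes of that length were higher and 9.25% lower. Of the 11 with over 1000 coding bases none rose and 4 fell (36.4%), with a median of -0.22, close to the 32% lower of all genes of that length, of which 2.77% were higher. Across the 78 genes, the Spearman correlation of the Cd difference with coding length was -0.43 and with the length of the whole transcript -0.14; genes are not independent replicates, and they share the same libraries. The gradient was not limited to these genes. Over all genes tested with an annotated coding length, the median difference was 0.12 up to 400 bases, 0.03 above that and up to 500, -0.07 up to 700, -0.16 up to 1000 and -0.26 for longer ones (Spearman -0.24, n = 10494). Over these genes the correlation with the length of the whole transcript was the stronger one, at -0.30, unlike in the 78. In Cd+Se against control, the Spearman correlation with coding length was -0.38 across the 78 genes and -0.04 over all genes. Mrps23, with 531 coding bases, was the exception among the genes that fell, and Mrps35, with 960, the longest that rose. Library composition moves with Cd in these files, and its part in the length gradient was not tested.

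**Figure D3:**
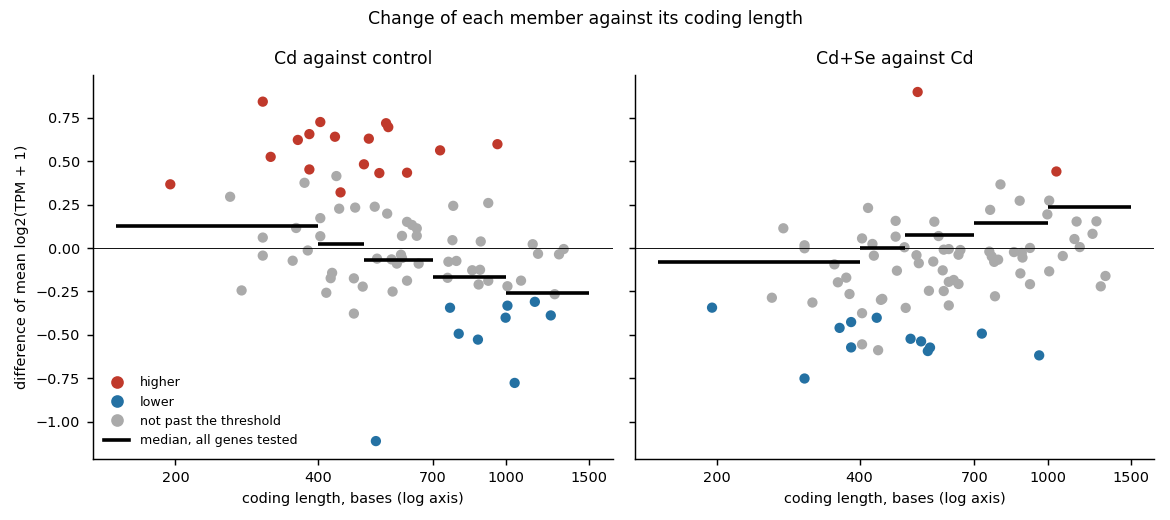
Difference of mean log2(TPM + 1) (y axis) of each of the 78 genes against its coding length in bases (x axis, log scale), for Cd against control on the left and Cd+Se against Cd on the right; red and blue points are past the threshold, and black lines are the medians of all genes tested in 5 length classes. On the left the points and the lines both descend with length, and on the right both ascend.

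Sequences at the starts of these genes were examined because nuclear genes for mitochondrial proteins are known to be driven by NRF1, by ETS factors such as GABP (also called NRF2) and by YY1. RefSeq windows (GRCm38.p6) of 250 bases before the start and 50 after it were available for 69 of the 78 genes. They were searched on both strands for GCGCATGCG (NRF1 core), CCGGAAGT (ETS site) and AAGATGGCG (YY1 site), none of which contains another. At least 1 of the 3 was found in 37.7% of the 69 genes and in 16.8% of the 8729 tested genes with a window. Taken singly, the NRF1 core was in 10.1% against 4.27%, the ETS site in 17.4% against 9.78% and the YY1 site in 11.6% against 3.87%. The NRF1 core was in 3 of the 9 genes that fell and in none of the 14 with a window that rose. The ETS site was in 2 and 4 of them. Of the 46 genes with a window that were not called, 4 (8.7%) held the NRF1 core and 6 (13%) the ETS site. The 3 genes that fell and held the NRF1 core were not steady calls. Over 26 alternative settings Mrpl9 was lost in 7, Mrpl39 in 16 and Mrps18b in 15. A link between motif and direction was not tested. The 30-base stretches around the NRF1 core and the ETS site are shown for all genes past the threshold in Cd that hold one, read 5′ to 3′ on the strand of the gene with the motif in capitals. The likeness of the capitals is set by the search, and the flanks show the sequence around them.

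Mrpl9, fell, NRF1 core, chr3:94443298-94443327: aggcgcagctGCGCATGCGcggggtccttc
Mrpl39, fell, NRF1 core, chr16:84735350-84735379: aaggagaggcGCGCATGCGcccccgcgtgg
Mrps18b, fell, NRF1 core in reverse, chr17:35916645-35916674: aacggcccgaCGCATGCGCactgggagcac
Mrpl3, fell, ETS site, chr9:105053238-105053267: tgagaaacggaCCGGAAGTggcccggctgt
Mrps27, fell, ETS site in reverse, chr13:99344726-99344755: gtggtaggaccACTTCCGGcggaggcgggc
Mrpl51, rose, ETS site, chr6:125192099-125192128: caggggctaaaCCGGAAGTatttgactgga
Mrpl52, rose, ETS site in reverse, chr14:54426899-54426928: gggccacgcccACTTCCGGttcccttgctc
Mrpl33, rose, ETS site, chr5:31613937-31613966: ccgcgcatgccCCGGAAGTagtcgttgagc
Mrpl18, rose, ETS site, chr17:12916312-12916341: actgaaaacgCCGGAAGTagggggctgcgg

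A match is a run of letters and not a measured binding site. In Mrpl9 and Mrpl39 the NRF1 core is followed by 1 more base that also completes it on the other strand. Gabpa, the DNA-binding subunit of GABP, was at 14.9 ± 1.47 TPM in control and 8.72 ± 1.54 TPM in Cd mice (SD, n = 4), a difference of -0.72 (SE 0.126, adjusted p = 0.000946). Other genes named for these factors had mean levels in control and Cd mice of 4.155 and 4.67 TPM (Gabpb1), 4.08 and 2.74 TPM (Nrf1), and 14.04 and 10.7 TPM (Yy1). In each of these, single control and Cd mice overlapped. A link between the levels of these factors and the direction of the genes with a motif was not tested.

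The second comparison asked how these genes differ between mice given both agents and mice given Cd alone. In Cd+Se against Cd, 2 of the 78 genes were higher and 12 lower. That is 2.56% and 15.4%, where 13.6% of all genes tested were higher and 2.35% lower. All Cd+Se mice were above all Cd mice in 2 genes and below them in 18 (2.56% and 23.1%, against 16.1% and 3.11% of all genes tested). The median difference was -0.08, beside 0.17 over all genes tested. With quantile normalization, which moved the median of all genes to 0.01, 1 was higher and 27 lower, and with centring on the library median, which moved it to -0.02, 1 was higher and 37 lower. Of all genes tested, 9.94% were then higher and 7.72% lower with quantile normalization, and 7.96% higher and 10.8% lower with centring. These calls lean on the spread estimated over all 4 groups. With only the Cd and Cd+Se mice in the limma model none of the 78 passed the threshold, and 0.561% of all genes did, while 23 (29.5%) had an unadjusted p under 0.05, beside 27% of all genes. Without Cd+Se mouse 14 the count was 3, without Cd mouse 2 or 5 it was 9, and without Cd+Se mouse 15 it was 8. The count over all 11766 genes fell as well, from 1876 to 712 without Cd+Se mouse 14. It was 1633 without Cd mouse 2, 767 without Cd mouse 5 and 1299 without Cd+Se mouse 15.

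All 14 genes were also past the threshold in Cd against control, in the opposite direction. How often this holds over all genes called in Cd+Se against Cd was not counted. The Kupffer cell markers, at 41.5 to 86.5 TPM in Cd+Se mice, compare with 45.9 to 70.9 TPM in Cd mice, and the neutrophil markers summed to 45.9 to 76.6 TPM; none of the tested markers of either type passed the threshold here. The 5 monocyte and recruited macrophage markers summed to 67.8 to 117 TPM in Cd+Se, 38.4 to 57.3 TPM in Cd and 43.3 to 59.8 TPM in control mice. Of the 3 tested, 2 rose with Cd and 1 rose with Se added to Cd. Of 5 sinusoidal endothelium markers 2 fell with Cd and 1 rose with Se added to Cd, and the part of these shifts was not tested. The comparisons share the Cd mice, so a low or high Cd value enters both with opposite sign, and the values are given side by side. Mrpl57 was at 9.82, 13.3, 18.9 and 16.01 TPM in Cd+Se mice 13 to 16, where Cd mice had 21.1 to 28.2 and control mice 9.26 to 18.1 TPM. All Cd+Se mice were below all Cd mice (-0.75, SE 0.189, adjusted p = 0.0181), and mouse 15 was above the highest control mouse. Mrps35, at 21.3, 22.9, 16.1 and 14.5 TPM, had a difference of -0.62 (SE 0.145, adjusted p = 0.0148), with mouse 14 just under the lowest Cd mouse at 24.0 TPM.

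Mrps28 was at 17.1, 15.4, 15.3 and 15.3 TPM, a narrow range below all Cd mice and within that of the control mice (-0.59, SE 0.142, adjusted p = 0.0152). Mrpl35, at 6.46, 6.90, 7.35 and 8.99 TPM, was lower as well (-0.57, SE 0.15, adjusted p = 0.0209). Mrpl51, at 22.1, 20.5, 25.3 and 25.9 TPM, did not overlap the Cd mice either (-0.57, SE 0.147, adjusted p = 0.0195).

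Mrpl18 had the smallest adjusted p of this comparison. Its Cd+Se mice were at 50.6, 48.8, 48.6 and 48.8 TPM, against 79.4, 77.9, 72.6 and 59.2 TPM in Cd mice (-0.54, SE 0.112, adjusted p = 0.00937). The 4 Cd+Se mice were nearly alike and the groups lay apart. The other 6 lower genes, Mrps25, Mrps7, Mrpl52, Mrps14, Mrpl14 and Mrpl33, had differences from -0.52 to -0.34. Of the 17 genes that rose with Cd, all 17 had a negative estimate here, and the 5 that did not pass the threshold were Mrpl54, Mrps33, Mrps24, Mrpl58 and Mrpl20. The Cd mice shared by both comparisons favour opposite signs in any gene called with Cd. The same count over all such genes was not made.

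The 2 higher genes were those that fell most with Cd. Mrps23 was at 20.3, 26.9, 28.3 and 23.5 TPM in Cd+Se mice, all above the Cd mice at 6.69 to 18.1 TPM (0.90, SE 0.243, adjusted p = 0.0235). Mrpl3 was at 13.4, 13.4, 14.5 and 12.6 TPM, above the Cd mice at 7.35 to 11.2 TPM and below the control mice at 14.7 to 19.3 TPM (0.44, SE 0.131, adjusted p = 0.0337). It thus lay between the groups, without overlap on either side. Of the 9 genes that fell with Cd, 8 had a positive estimate, a sign that the shared Cd mice favour. The exception was Mrps18b, at 24.9, 33.6, 29.5 and 38.3 TPM in Cd+Se mice, with -0.05 (SE 0.124, adjusted p = 0.817).

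**Figure D4:**
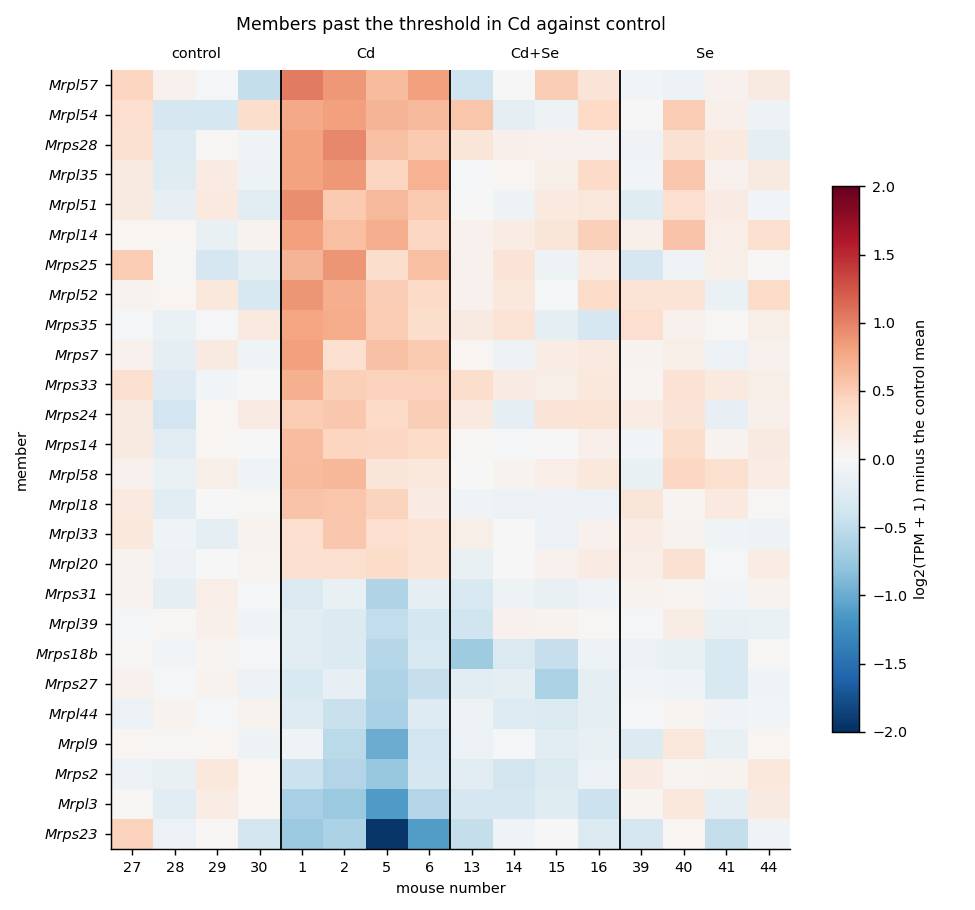
Log2(TPM + 1) minus the control mean (colour, red above and blue below) for the 26 genes past the threshold in Cd against control (rows) in each of the 16 mice (columns, by group). The Cd columns are red for the upper 17 genes and blue for the lower 9, with mouse 5 the darkest blue for Mrps23 and Mrpl3, and most cells of the Cd+Se and Se columns are pale.

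None of the 78 genes passed the threshold in Cd+Se against control (limma, 0.484% of all genes tested in either direction), and 6 had an unadjusted p under 0.05 (7.69%, beside 10.9% of all genes). The 3 with the smallest p were all lower in estimate: Mrps18b with -0.39 (SE 0.124, adjusted p = 0.228), Mrpl1 with -0.35 (SE 0.134, adjusted p = 0.328) and Mrpl3 with -0.34 (SE 0.131, adjusted p = 0.348). For Mrps18b and Mrpl3 every Cd+Se mouse was below every control mouse. Over the 78 genes the differences ran from -0.39 to 0.24 with a median of -0.08, beside -0.02 over all genes tested.

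In Se against control none of the 78 passed the threshold, nor did any other gene (limma, 0% of all genes tested). The 2 with an unadjusted p under 0.05 (2.56%, beside 3.86% of all genes) were Mrps17, at 40.1 ± 3.40 TPM in control and 48.0 ± 2.98 TPM in Se mice (SD, n = 4), and Mrpl14, with differences of 0.25 (SE 0.114) and 0.28 (SE 0.127), each with an adjusted p of 1.0. Mrpl41 followed with 0.18 (SE 0.102). In Mrps17 and Mrpl14 every Se mouse was above every control mouse.

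Among mice on the SeMet diet, Cd+Se against Se gave none of the 78 past the threshold (0.714% of all genes tested) and 7 with an unadjusted p under 0.05 (8.97%, beside 10.9% of all genes). Mrps2 had the smallest, with -0.38 (SE 0.113, adjusted p = 0.177), then Mrpl3 with -0.40 (SE 0.131, adjusted p = 0.230) and Mrps17 with -0.33 (SE 0.114, adjusted p = 0.253). All 3 were lower in every Cd+Se mouse than in every Se mouse.

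Whether the Cd difference itself differed with the diet was tested as the interaction of Cd and Se in the same limma model. No gene of the 78 passed the threshold (1.04% of all genes tested did), and the smallest adjusted p was 0.0531, for Mrpl18. An unadjusted p under 0.05 was found for 18 (23.1%, beside 21.3% of all genes). This depends on the scaling, since 12 of the 78 passed with quantile normalization and 16 with centring on the library median (4.45% and 6.21% of all genes). After rescaling over nuclear protein-coding genes, or after either length and GC correction, 8 passed. Of all genes, 6.97% passed after rescaling, 2.96% with the correction for transcript length and GC and 3.92% with that for coding length and GC.

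The mitoribosome has further proteins under other names, and 5 were listed: Dap3, Ptcd3, Gadd45gip1, Aurkaip1 and Chchd1. In Cd against control 3 rose (60%) and 1 fell (20%), beside 5.82% higher and 24.9% lower of all genes tested. Dap3, a GTP-binding protein of the small subunit, was at 23.8 ± 2.87 TPM in control and 35.8 ± 2.95 TPM in Cd mice (0.57, SE 0.104, adjusted p = 0.00116), and Gadd45gip1, of the large subunit, at 5.32 ± 0.328 and 8.68 ± 0.872 TPM (0.61, SE 0.119, adjusted p = 0.00169; SD, n = 4). Aurkaip1 also rose, by 0.31 (SE 0.114, adjusted p = 0.047). With no filter, only the groups compared or no intensity trend, 2 of the 5 rose in place of 3. Of all genes, 2.2%, 6.35% and 5.78% were then higher. Ptcd3, a pentatricopeptide repeat protein, fell by 0.43 (SE 0.114, adjusted p = 0.0101). Gadd45gip1 and Aurkaip1 were lower in Cd+Se than in Cd, with -0.58 (SE 0.119, adjusted p = 0.00878) and -0.37 (SE 0.114, adjusted p = 0.0403). That is 40% of the 5, beside 2.35% of all genes tested, and none was higher. With only the Cd and Cd+Se mice in the fit none of the 5 passed, beside 0.561% of all genes.

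The lists of genes that serve the mitoribosome are read against the same shares of all genes tested, 5.82% higher and 24.9% lower with Cd, and 13.6% higher and 2.35% lower in Cd+Se against Cd. Of 16 translation factors and mRNA-binding activators 1 rose and 10 fell (62.5%) with Cd, with a median of -0.40. Taco1, needed to translate a cytochrome oxidase subunit, was at 11.5 ± 1.32 TPM in control and 3.72 ± 0.667 TPM in Cd mice (SD, n = 4), a difference of -1.41 (SE 0.149, adjusted p = 4.32e-05). Lrpprc, which stabilizes mitochondrial mRNAs, fell by 0.93 (SE 0.15, adjusted p = 0.000579), and the release factor Mtrf1 by 0.81 (SE 0.144, adjusted p = 0.00102). The gene that rose was Slirp, the small partner of Lrpprc, with 0.79 (SE 0.174, adjusted p = 0.00357). In Cd+Se against Cd 4 of the 16 were higher and 1 lower: Taco1 was higher by 0.90 (SE 0.149, adjusted p = 0.00436) and Slirp lower, with -0.62 (SE 0.174, adjusted p = 0.0272).

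Of 25 tested genes for assembly of the mitoribosome and modification of its RNA, none rose and 9 fell (36.0%) with Cd. None passed in Cd+Se against Cd (limma). There 4 of the 25 had an unadjusted p under 0.05, beside 33.1% of all genes tested. Mrm2, which methylates the large ribosomal RNA, fell by 0.84 (SE 0.15, adjusted p = 0.00106) and Trub2, a pseudouridine synthase, by 0.99 (SE 0.24, adjusted p = 0.00644). Dhx30, a helicase needed for assembly, fell by 1.01 (SE 0.352, adjusted p = 0.0398), with a wide spread in control mice (18.1 ± 13.9 TPM, SD, n = 4). Control mouse 30 was at 38.96 TPM, far above mice 27, 28 and 29 at 10.4, 11.8 and 11.3 TPM. Cd mice 1, 2, 5 and 6 were at 7.63, 3.47, 10.06 and 9.33 TPM, so the size of this fall leans on control mouse 30. Of 19 tested mitochondrial aminoacyl-tRNA synthetase and amidotransferase genes 4 fell (21.1%, near the share of all genes), among them Rars2 by 0.85 (SE 0.148, adjusted p = 0.000912), Pars2 by 0.59 (SE 0.152, adjusted p = 0.00892) and Gatc by 0.53 (SE 0.137, adjusted p = 0.00905).

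Of 12 regulators of mitochondrial transcription and biogenesis 4 fell (33.3%) and none was called higher. With quantile normalization or centring on the library median 2 were higher and 4 lower. Of all genes, 14.5% and 19.2% were then higher, and 19.3% and 15.3% lower. The counts were also 2 and 4 with the correction for transcript length and GC (13.7% and 16.4% of all genes). They were the same with that for coding length (14.8% and 17.4%) and with only the groups compared (6.35% and 24.0%). After rescaling over nuclear protein-coding genes 1 was higher and 5 lower (7.55% and 29.4%). In Ppargc1a and Myc every Cd mouse was above every control mouse. Ppargc1a was at 1.775 ± 0.135 TPM in control and 3.99 ± 1.30 TPM in Cd mice, and Myc at 0.75 ± 0.274 and 1.475 ± 0.321 TPM (SD, n = 4). Tfam, which packages mitochondrial DNA and starts its transcription, was at 38.3 ± 3.77 TPM in control and 18.9 ± 6.24 TPM in Cd mice (SD, n = 4), a difference of -1.03 (SE 0.196, adjusted p = 0.00151). Esrra, a nuclear receptor that drives genes of oxidative metabolism, fell by 0.76 (SE 0.141, adjusted p = 0.00125). In Cd+Se mice 3 of the 12 were higher than in Cd mice: Tfam by 0.85 (SE 0.196, adjusted p = 0.0141), Tfb2m by 0.56 (SE 0.115, adjusted p = 0.00878) and Gabpa by 0.52 (SE 0.126, adjusted p = 0.0155).

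Of 10 mitochondrial chaperones and proteases 6 fell (60%) with Cd and none rose, and 5 were higher in Cd+Se than in Cd (50%). Hspd1, the matrix chaperonin, was at 243 ± 19.0 TPM in control, 143 ± 26.9 TPM in Cd and 205 ± 16.7 TPM in Cd+Se mice (SD, n = 4), with differences of -0.78 (SE 0.132, adjusted p = 0.000748) and 0.54 (SE 0.132, adjusted p = 0.0168). Lonp1, a protease that also binds mitochondrial DNA, fell by 0.61 (SE 0.126, adjusted p = 0.0027). Of 17 import genes 3 rose (17.6%) and 4 fell (23.5%), the latter near the share of all genes. Timm10, an intermembrane-space chaperone, fell by 0.82 (SE 0.108, adjusted p = 0.000185), whereas Timm17b of the inner-membrane channel rose by 0.63 (SE 0.146, adjusted p = 0.00481) and the small outer-membrane subunit Tomm7 by 0.52 (SE 0.134, adjusted p = 0.00867).

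**Figure D5:**
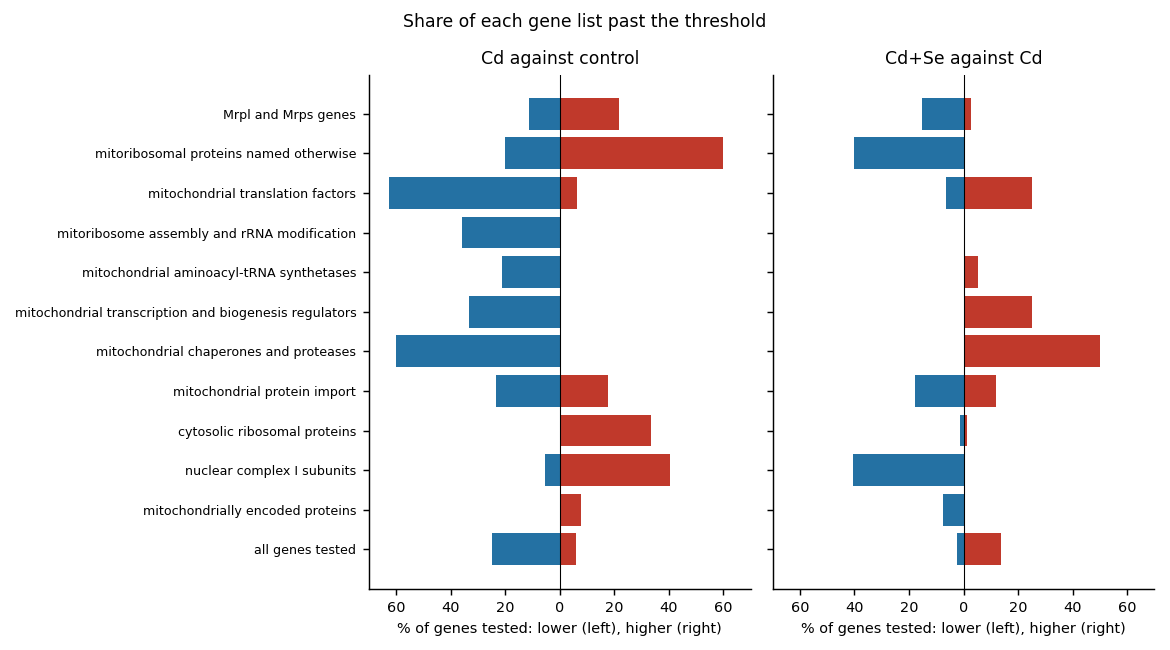
Percent of the tested genes of each list (y axis) past the threshold, lower to the left in blue and higher to the right in red, in each of the first 2 comparisons. With Cd, the 78 genes stand at 21.8% higher and 11.5% lower beside 5.82% and 24.9% of all genes tested, and the lists of assembly factors, synthetases, regulators and chaperones have bars to the left only.

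For comparison, 26 of 78 tested cytosolic ribosomal protein genes rose with Cd (33.3%) and none fell, and 15 of 37 nuclear genes for complex I subunits rose (40.5%) and 2 fell (5.41%), beside 5.82% higher and 24.9% lower of all genes tested. With both agents against Cd alone, 1 cytosolic ribosomal protein gene was higher and 1 lower, and 15 complex I genes were lower (40.5%) and none higher, beside 13.6% higher and 2.35% lower of all genes. Of the 13 genes encoded in mitochondrial DNA 1 rose with Cd. These lists differ in gene length, and they were compared by counts only, with no test of the difference between them. With quantile normalization or centring, 3 of the 25 assembly genes were lower with Cd. That share was below the 19.3% and 15.3% of all genes lower under these 2 scalings. Direction by counts held under the other scalings for the cytosolic ribosomal and complex I genes with Cd, for the translation factors, which had 1 higher and 5 to 10 lower, and for the assembly genes, which had none higher and 3 to 9 lower. It did not hold for the synthetases, with 2 higher and 2 lower after centring on the library median, for the import genes, with 4 higher and 4 lower after quantile normalization and 6 higher and 3 lower after centring, or for the mitochondrially encoded genes, with none called after quantile normalization, and 2 lower and none higher after the correction for transcript length and GC content. In Cd+Se against Cd it did not hold after quantile normalization or centring for the translation factors, with 1 higher and 2 lower, or the synthetases, with 1 lower in place of 1 higher. After the correction for coding length and GC content the chaperones and proteases had 1 higher and 1 lower there, and the import genes 2 of each. With only the Cd and Cd+Se mice in the fit, no gene of the translation factor, regulator, chaperone, import or complex I lists passed in that comparison. There the cytosolic ribosomal genes, with no balance either way at first, had 1 higher and 25 lower after centring and 11 higher and 3 lower after the correction for transcript length and GC content.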

How the data were processed

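Poly(A) RNA of mouse liver was sequenced on an Illumina NovaSeq instrument. The authors deposited 1 table of TPM per gene, mouse and library, with Ensembl identifiers, symbols and biotypes. The submitters' processing notes name fastp, HISAT2 and StringTie without versions, and the build GRCh38, although the identifiers are those of mouse genes. The titles name 2 repeats per mouse and the table holds 1 column, and how they were combined is not given in the sources used here. Depth is unknown, since TPM do not hold it, and precision rests on 4 mice per group. Mice were grouped by the treatment label, and the labels name no batch.

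Log2(TPM + 1) of 11766 genes (mean of 1 TPM or more) was fitted with limma 3.58.1 in R 4.3.3, with 1 mean per group, an intensity trend and Benjamini-Hochberg adjustment over all genes. The steps were tested on simulated data. Coding length, transcript length and GC content are from the APPRIS principal transcript in GENCODE M21, for 98.3% of the genes tested (coding length 89.2%). All 78 genes passed the filter, so the permutation test planned for genes under it was not needed.

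The genes and lists were chosen with earlier results of these data known. Named genes were the up to 10 largest rises and falls with Cd, up to 6 each way in the other comparisons or else the 3 smallest p, the 6 highest and 3 lowest levels, genes of fixed roles, and up to 3 per list. The other genes past the threshold were named after their values were seen. Alternatives were a pseudocount of 0.1, no filter, a filter of 5 TPM, quantile normalization, centring on the library median, rescaling over nuclear protein-coding genes, loess corrections (span 0.5) for transcript or, added after seeing the data, coding length and GC, only the groups compared, no trend, and leaving out each mouse.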

Additional observations from a re-analysis of the deposited data

Results flagged for a closer look

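Within each group of 4 mice, the highest or lowest mouse was compared with the others by the ratio of its gap to the group's whole range, against Dixon's 95% critical value for 4 samples. Of 312 groups examined (78 genes in 4 groups) 16 were past it, where about 1 in 20, or 15.6, is what chance gives. In the Cd group the mice that stood apart were mouse 6, low for Mrpl2 (41.2 TPM, ratio 0.931), mouse 5, low for Mrpl37 (13.8 TPM, 0.884), and mouse 1, high for Mrps33 (46.3 TPM, 0.919). In the Cd+Se group mouse 13 was high for Mrpl18 (0.875) and Mrps28 (0.909) and low for Mrpl39 (0.865) and Mrps12 (0.832), and mouse 15 was low for Mrps27 (0.868). In the control group mouse 29 was low for Mrpl14 (0.865), mouse 27 high for Mrpl36 (0.84), mouse 28 low for Mrpl41 (0.912) and mouse 30 low for Mrpl9 (0.927). In the Se group mouse 40 was high for Mrpl28 (0.838), mouse 44 high for Mrpl32 (0.851), and mouse 41 low for Mrpl30 (0.84) and Mrps27 (0.836). Several of these are small in absolute terms. The Mrpl18 value of mouse 13 was 50.6 TPM beside 48.6 to 48.8 TPM in the other 3 mice.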

How the results depend on the processing

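No paired analysis was possible because the mouse numbers in the labels are not shared between groups. Over 26 alternatives no gene past the threshold in either comparison with calls reversed its direction. Of the 26 genes called in Cd against control, 14 were past the threshold under every alternative (Mrpl14, Mrpl18, Mrpl3, Mrpl35, Mrpl51, Mrpl54, Mrpl57, Mrps14, Mrps23, Mrps25, Mrps28, Mrps33, Mrps35 and Mrps7). With 1 mouse left out the count was 18 to 26, beside 2588 to 3886 of all 11766 genes. The median change of the 78 genes with Cd was 0.15 with quantile normalization and 0.21 with centring, and -0.04 to 0.07 with 1 mouse left out. In Cd+Se against Cd none of the 14 calls was kept under every alternative. The count was 28 with quantile normalization (17.7% of all genes passed), 38 with centring (18.8%), 23 after rescaling over nuclear protein-coding genes (21.7%), 22 with the coding length and GC correction (15.4%), 8 with no filter (4.05%), 0 with only the groups compared (0.561%), and 3 to 16 with 1 mouse left out (712 to 2164 of all 11766 genes). The median was -0.21, -0.28, -0.14 and -0.17 under the first 4 of these. The interaction had 12 genes past the threshold with quantile normalization, 16 with centring and 8 after rescaling (4.45%, 6.21% and 6.97% of all genes). It had 8 with either length and GC correction (2.96% for transcript and 3.92% for coding length). With a filter of 5 TPM it had 1 (1.58%), and with 1 mouse left out 0 to 1. More or fewer genes enter the adjustment with other filters; otherwise the cause was not tested.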
